A study of Mus musculus with 4 samples.

Results

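Peaks of PLZF pull-down that lay at the edges of protein-coding genes are described here. A peak was counted when its midpoint lay within 1 kb of the start or the end of a protein-coding gene on the autosomes or chromosome X. The rule used positions only. It took 922 of the 5191 such nuclear peaks in the Tg thy list (17.8%, exact 95% interval 16.7 to 18.8%) and 778 of 4239 in the NKT list (18.4%, 17.2 to 19.6%). The Tg thy list comes from the streptavidin ChIP library of thymocytes of PLZF tg/BirA tg mice. The NKT list is the streptavidin ChIP library from PLZF tg/BirA tg/Valpha14 tg mice, whose cell type is also given as thymocytes. All mice had a C57BL/6 background, and every group carried the PLZF and BirA transgenes. BirA is a bacterial biotin ligase, and Valpha14 is the receptor chain that invariant natural killer T cells share. Each genotype also had an input library, not analysed here. The promoters that drive the transgenes, the number of mice pooled and any sorting of natural killer T cells are not stated in the labels, so NKT names a library and not a purified cell type. Each group was 1 library with no replicate. No test between libraries was possible, and the intervals cover counting error only. The samples include no pull-down from mice that lack the PLZF transgene, so PLZF binding and nonspecific recovery cannot be told apart.

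PLZF, the product of Zbtb16, is a BTB zinc finger transcription factor that gives natural killer T cells their innate-like effector program and that can recruit co-repressors to DNA. A gene start is where RNA polymerase II begins transcription. Many mammalian starts lie in DNA rich in CG dinucleotides, and the promoters of broadly used genes often hold binding sites of ETS family factors, whose core is CCGGAA. Promoters of T cell specific genes are more often poor in CG. A gene end is where the transcript is cut and polyadenylated, and open chromatin downstream of a gene can also hold enhancers.

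The promoters below show the kinds of sequence found under the start peaks. The first 4 are from the 12 genes that ranked highest in both lists, and each whole stretch lies inside the peak of both lists. Each stretch holds 250 bases before the RefSeq start, 5′ to 3′ in the direction of the gene, from the RefSeq promoter table (GRCm38.p6, which is mm10). Capitals mark CCGGAA or its reverse complement TTCCGG. They were picked for print after their values were seen, 2 genes of general cell function with the motif and 2 genes of blood cells without it.
Mfap1b, a spliceosome-associated protein gene, minus strand, chr2:121474024-121474273: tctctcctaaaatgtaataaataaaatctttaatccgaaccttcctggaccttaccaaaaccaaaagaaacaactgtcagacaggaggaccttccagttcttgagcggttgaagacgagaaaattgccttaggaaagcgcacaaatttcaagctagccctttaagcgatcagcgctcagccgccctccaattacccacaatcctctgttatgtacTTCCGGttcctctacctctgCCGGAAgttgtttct
Polr3b, an RNA polymerase III subunit gene, plus strand, chr10:84622048-84622297: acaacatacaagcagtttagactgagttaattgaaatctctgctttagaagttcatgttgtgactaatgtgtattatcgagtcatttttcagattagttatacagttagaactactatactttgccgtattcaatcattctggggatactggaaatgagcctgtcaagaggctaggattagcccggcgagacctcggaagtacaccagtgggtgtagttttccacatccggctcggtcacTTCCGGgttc
Arhgdib, a GDP-dissociation inhibitor gene of blood cells, minus strand, chr6:136941900-136942149: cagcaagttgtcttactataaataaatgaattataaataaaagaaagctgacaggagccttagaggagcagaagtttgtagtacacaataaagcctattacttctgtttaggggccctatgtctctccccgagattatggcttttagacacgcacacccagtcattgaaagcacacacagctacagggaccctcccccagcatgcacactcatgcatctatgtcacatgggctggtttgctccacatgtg
Rasal3, a Ras GTPase-activating protein gene of blood cells, minus strand, chr17:32403583-32403832: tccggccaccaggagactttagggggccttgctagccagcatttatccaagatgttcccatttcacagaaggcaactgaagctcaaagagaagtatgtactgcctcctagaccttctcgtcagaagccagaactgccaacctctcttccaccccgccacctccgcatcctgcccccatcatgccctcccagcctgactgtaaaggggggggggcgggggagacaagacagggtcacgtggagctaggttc
The Mfap1b stretch held 2 such sites, whose first letters lay 35 and 15 bases before the start. The Polr3b stretch held 1, with its first letter 10 bases before the start. Neither letter string occurred in the Arhgdib and Rasal3 stretches. In its 300-base window (250 before to 50 after the start) Mfap1b had 13 CG dinucleotides and Polr3b 12, against 4 in Arhgdib and 7 in Rasal3. These examples do not stand for all of the 12. Nme1, Mrpl1 and Cltc, also genes of general cell function, held 0 such sites in their 250 bases. Their 300-base windows held 1 each, with 22, 17 and 27 CG dinucleotides. Nsg2, a neuronal gene, held 0 in both.

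The 100 bases before the start are shown for 8 further genes of the 3 gene groups described below. They are examples, also picked after their values were seen. The first 3 encode splicing proteins, the next 3 encode ribosomal proteins, and the last 2 encode parts of T cell receptor signalling.
Sf3a3, splicing factor 3a subunit, plus strand, chr4:124714761-124714860: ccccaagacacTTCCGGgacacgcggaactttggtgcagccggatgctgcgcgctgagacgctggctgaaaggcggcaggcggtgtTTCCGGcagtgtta
Snrpd3, core small nuclear ribonucleoprotein, plus strand, chr10:75517942-75518041: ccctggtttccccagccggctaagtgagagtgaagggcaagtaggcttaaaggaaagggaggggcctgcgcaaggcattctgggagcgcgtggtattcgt
Hnrnpf, heterogeneous nuclear ribonucleoprotein, plus strand, chr6:117900240-117900339: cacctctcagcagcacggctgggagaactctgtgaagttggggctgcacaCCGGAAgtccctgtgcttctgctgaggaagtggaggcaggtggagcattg
Rpl27, large-subunit ribosomal protein, plus strand, chr11:101442145-101442244: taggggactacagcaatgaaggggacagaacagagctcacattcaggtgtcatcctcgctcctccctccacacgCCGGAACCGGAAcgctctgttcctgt
Rps18, small-subunit ribosomal protein, minus strand, chr17:33955666-33955765: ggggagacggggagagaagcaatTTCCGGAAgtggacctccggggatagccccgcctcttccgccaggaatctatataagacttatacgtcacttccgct
Rps26, small-subunit ribosomal protein, minus strand, chr10:128626507-128626606: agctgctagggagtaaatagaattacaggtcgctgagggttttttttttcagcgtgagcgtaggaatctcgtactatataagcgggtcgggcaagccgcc
Lcp2, the adaptor SLP-76, plus strand, chr11:34046828-34046927: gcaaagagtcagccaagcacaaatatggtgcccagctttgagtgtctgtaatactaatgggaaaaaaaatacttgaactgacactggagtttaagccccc
Cd3g, the T cell receptor subunit CD3 gamma, minus strand, chr9:44980432-44980531: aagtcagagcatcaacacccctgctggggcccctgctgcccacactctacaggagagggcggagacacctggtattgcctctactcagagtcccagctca
Sf3a3 and Rpl27 held 2 sites each, and those of Rpl27 followed each other directly. The capitals of Rps18 are 2 overlapping matches, 1 on each strand. Snrpd3, Rps26, Lcp2 and Cd3g had none in these 100 bases, although the 300-base windows of Snrpd3 and Rps26 held 2 and 1. Lcp2 had 0 CG dinucleotides in its window and Cd3g had 4, against 22 in Sf3a3 and 24 in Rps18.

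Boundary peaks lay mostly at gene starts. Strand was known for 17273 of 21627 protein-coding genes. Among boundary peaks of known strand, 86.7% of those in the Tg thy list and 87.3% of those in the NKT list were start peaks. In numbers, 654 peaks of the Tg thy list lay at a start and 100 at an end with no start within 1 kb, and 168 touched a gene of unknown strand. The NKT list had 544, 79 and 155. The start peaks thus made up 12.6% of the nuclear Tg thy peaks (11.7 to 13.5%) and 12.8% of the NKT peaks.

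Start peaks were centred just before the start in both lists. Their median midpoint lay at -53.0 bp in the Tg thy list (quartiles -239 to 102 bp) and at -37.0 bp in the NKT list (-203 to 119 bp), where negative values are before the start. The midpoint was before the start in 400 of 654 (61.2%, 57.3 to 64.9%) and in 318 of 544 (58.5%, 54.2 to 62.6%). Within 250 bp of the start lay 388 (59.3%) and 335 (61.6%). End peaks showed no such centre: 24 of 100 and 20 of 79 were within 250 bp of the end.

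**Figure D1:**
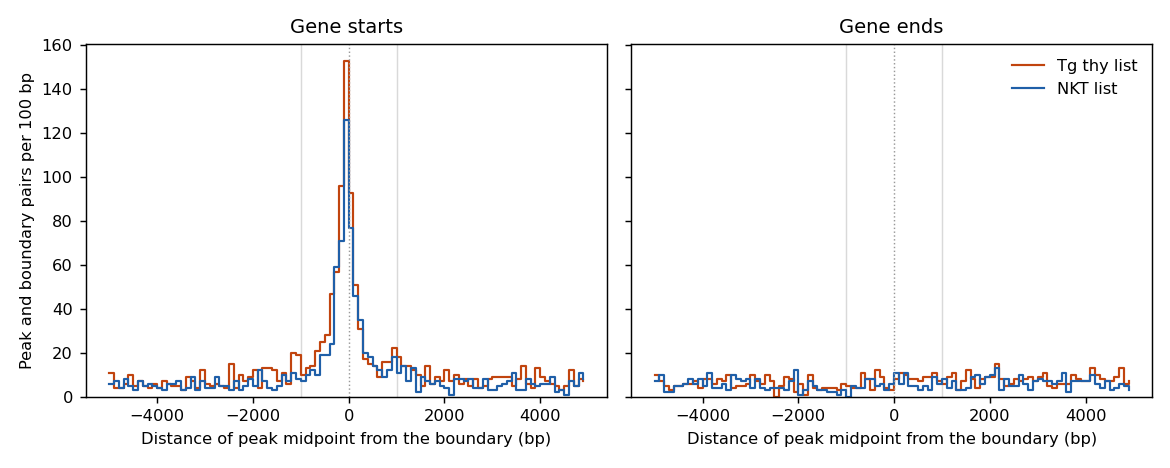
Number of pairs of a peak midpoint and a gene boundary in 100-bp steps from 5 kb before to 5 kb after gene starts (left) and gene ends (right), for genes of known strand, Tg thy list in orange and NKT list in blue; grey lines mark 1 kb. The counts rose close to starts, while those around ends showed no such rise, and varied from 21 to 45 (Tg thy) and from 11 to 39 (NKT) per 500 bp, lowest 1 to 1.5 kb before the end.

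The rise at starts was about 9-fold over the flanks and that at ends close to 1. In 500-bp steps the steps that touch the start held a mean of 294 peak and start pairs in the Tg thy list, against 32.2 at 4 to 5 kb from it, a ratio of 9.12. In the NKT list the means were 248 and 28.5, a ratio of 8.68. At ends the means were 38.0 and 36.2 in the Tg thy list (ratio 1.05) and 33.0 and 28.5 in the NKT list (1.16). Per Mb of DNA within 1 kb of starts there were 19.9 and 16.6 start peaks, against 3.38 and 2.67 end peaks near ends and 1.69 and 1.37 peaks away from any boundary. The end density was thus above that of DNA more than 1 kb from any boundary, which includes the inside of genes, although the counts at ends were close to those at 4 to 5 kb.

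Start peaks were not the strongest peaks of either list. The score is the authors' own value for each peak, and its meaning is not stated. It is used here to rank peaks within a list, so the values of both lists are set side by side and show no change between them. The median score of start peaks was 97.4 in the Tg thy list (quartiles 67.0 to 166), below the 118 of end peaks and the 113 of peaks away from boundaries. In the NKT list the medians were 68.8 (56.2 to 109), 83.8 and 74.9. The highest start peak scored 1184 and 849.0, while the highest peaks away from boundaries scored 3133 and 3104. Divided into 5 classes by score, the class with the lowest scores held 14.2% start peaks in the Tg thy list (12.2 to 16.5%) and the highest class 8.77% (7.12 to 10.7%). In the NKT list the corresponding shares were 12.8% and 9.43%, with 15.4% in the next-lowest class. The share of end peaks went the other way, from 1.92% to 2.31% and from 1.76% to 2.59%, with overlapping intervals.

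Start peaks were common to both lists at close to the share of all peaks. Counting any overlap of 1 bp or more, 45.7% of all nuclear peaks of the Tg thy list and 60.7% of those of the NKT list had a partner in the other list. Of the start peaks, 278 of 654 did so (42.5%, 38.7 to 46.4%) and 311 of 544 (57.2%, 52.9 to 61.4%). Of the end peaks, 50 of 100 and 52 of 79 did so. These shares lie near the background of each list. Shared start peaks had higher median scores than unshared ones, 154 against 76.7 in the Tg thy list and 91.9 against 59.2 in the NKT list. In the highest score class 89.0% of start peaks and 88.0% of peaks away from boundaries were shared in the Tg thy list. For NKT these were 76 of 80 start peaks and 96.7% of the others.

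A start peak was found at 700 of the 17273 genes of known strand in the Tg thy list (4.05%), at 552 in the NKT list (3.20%) and at 319 in both (1.85%). The genes common to both were 45.6% of the first set and 57.8% of the second. Of the 381 genes with a start peak in the Tg thy list only, 3 had a peak that overlapped an NKT peak lying beyond the 1 kb limit, and of the 233 NKT-only genes 7 did. Genes with a start peak had a median length of 18.8 kb and 18.6 kb, against 17.2 kb for all genes.

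The genes that ranked highest in both lists had varied roles. Nsg2, a neuronal endosomal protein gene on chromosome 11, had the highest start peaks of both lists, with a Tg thy score of 1184 and an NKT score of 849.0; their midpoints lay 451 and 425 bp after the start. Cic, which encodes the repressor Capicua, followed with 720.3 and 624.8. Its peaks lay 425 and 405 bp into the gene. Both genes thus had their peak midpoints after the outermost start, which is the one used here. The RefSeq promoter start of Nsg2 lay 715 bp past that start, so both of its midpoints lay before the promoter start.

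Several of these genes serve RNA metabolism. Mfap1b scored 753.6 and 442.6, with midpoints 166 and 135 bp before the start. Mfap1b and Mfap1a are close copies of each other, and how reads that fit both were treated is not stated. Alyref2, an mRNA export adaptor gene, scored 867.5 and 412.9 at -429 and -449 bp. Polr3b scored 485.3 and 422.1 at -53 and 24 bp. Mrpl1, a mitochondrial ribosomal protein gene, scored 528.1 and 316.7 at 561 and 538 bp. Its RefSeq promoter start lay 617 bp past the outermost start, so both midpoints lay before the promoter start.

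Blood cell genes and other genes of general cell function made up the rest of the 12. Arhgdib scored 589.3 and 407.5, and its peaks spanned the start. Rasal3 scored 661.7 and 289.2, and its Tg thy peak was the widest of the 12 at 1384 bp. Fem1a, a substrate receptor of ubiquitin ligases, scored 588.5 and 343.0, with midpoints at -666 and -563 bp. Nme1, a nucleoside diphosphate kinase gene, scored 606.1 and 321.5 at -83 and -138 bp. Cltc, the clathrin heavy chain gene, scored 515.3 and 526.2. Peak1, a pseudokinase gene of the cytoskeleton, scored 692.4 and 296.8 at -762 and -844 bp. In each of these 12 genes the peaks of both lists overlapped.

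**Figure D2:**
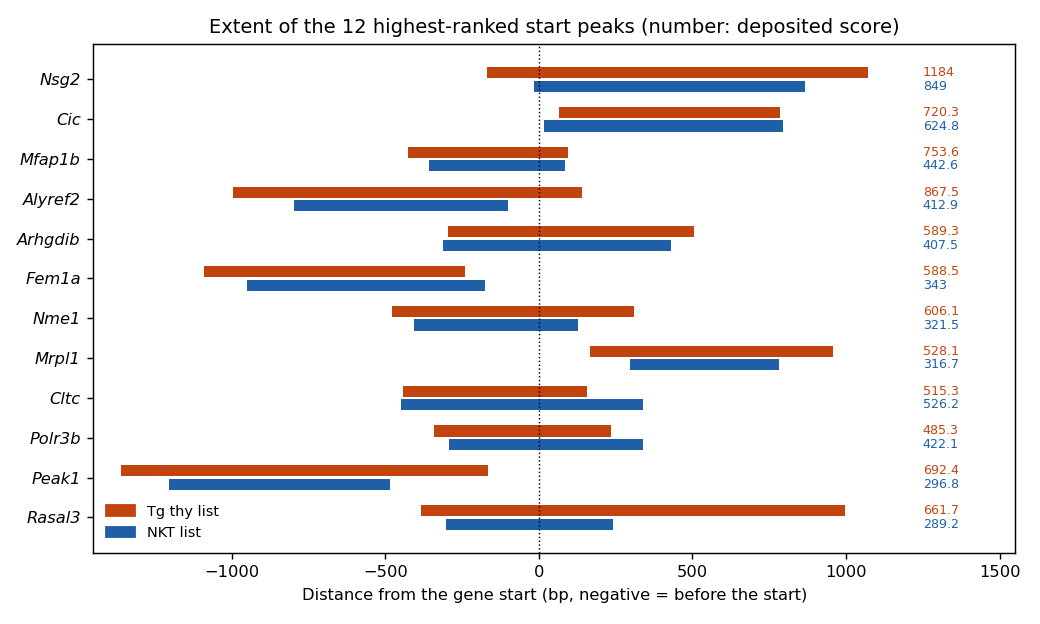
Extent of the start peaks of the 12 genes ranked by the lower of their 2 within-list score percentiles, as distance in bp from the gene start along the direction of the gene, with the deposited score at the right; Tg thy list in orange, NKT list in blue. The start is the outermost one of the gene table. Peaks of Nsg2, Mfap1b, Arhgdib, Nme1, Cltc, Polr3b and Rasal3 cross it in both lists. Those of Cic and Mrpl1 lie after it and those of Fem1a and Peak1 before it. The RefSeq promoter start of Mrpl1 lies 617 bp past the start shown, and the peaks of both lists cross it.

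Genes of T cell receptor signalling had start peaks at a higher share than genes at large. This list and the other gene lists below were chosen with earlier results of these data known. Their shares therefore describe the lists and are not independent support. Of 28 such genes with known strand, 13 had a start peak in the Tg thy list (46.4%, 27.5 to 66.1%, against 4.05% of all genes), 10 in the NKT list (35.7%, 18.6 to 55.9%, against 3.20%) and 9 in both. The median score of their start peaks was 229.8 and 111, against 101 and 72.0 over all genes with a start peak. Of 10 further genes of the group with unknown strand, 7 and 5 had a boundary peak, against 4.23% and 3.79% of all 4354 genes of unknown strand.

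The receptor itself was represented by the CD3 genes, which encode the signalling subunits of the T cell receptor complex and lie together on chromosome 9. Cd3g had start peaks with scores of 487.7 in the Tg thy list and 258.2 in the NKT list. Cd3d had start peaks of 142.1 and 96.3. Cd3e had a start peak of 203.4 in the Tg thy list only. The strongest peak of the cluster was not at a start: the end of Cd3d carried peaks of 1043 and 504.9, the highest end peak that both lists had by rank. The NKT list had a further peak of 214.6 there, under the same wide Tg thy peak.

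**Figure D3:**
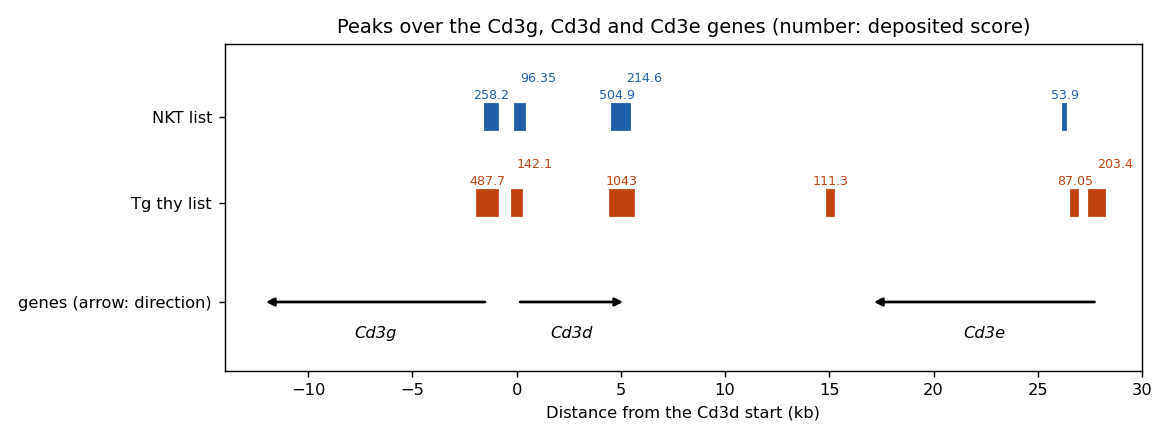
Peaks of both lists over Cd3g, Cd3d and Cd3e as boxes to scale, in kb from the start of Cd3d, with the deposited score above each; arrows run from gene start to gene end. The start of Cd3g, the start of Cd3d and the end of Cd3d have peaks in both lists, and the start of Cd3e has 1 in the Tg thy list only.

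Kinases and adaptors downstream of the receptor also had start peaks. Lcp2 scored 297.8 and 290.1, with midpoints 69 and 37 bp after the start. Grap2, which encodes the adaptor Gads that binds SLP-76, scored 402.8 and 193.2. Zap70, the kinase that binds phosphorylated CD3 chains, scored 133.8 and 74.1. Lck, the kinase that phosphorylates those chains, scored 120.5 and 126.6 at -73 and -65 bp. Lck regulatory DNA is often used to drive transgenes in thymocytes, and a part of transgene copies in the Lck peak was not tested. Themis, needed for thymocyte selection, scored 270.7 and 139.1. Ptprc, the CD45 phosphatase, scored 236.1 and 74.3, and Ubash3a, a phosphatase-like inhibitor of the pathway, 97.5 and 77.7. Peaks in 1 list only were at Txk, a Tec family kinase gene (273.2), Cd5, an inhibitory co-receptor (229.8), and Rhoh, a blood cell GTPase (124.6), all in the Tg thy list, and at Vav1, an exchange factor gene, in the NKT list (56.1).

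Of the genes whose strand was not known, Cd8b1, the beta chain of the CD8 co-receptor, had the highest scores of the group, 667.8 and 706.9. Sh2d2a, an adaptor gene, had 465.2 and 245.8, and Sla, an adaptor that lowers receptor levels, 164.8 and 157.1. Cd2, an adhesion receptor gene, had 309.6 and 151.3 at 881 and 976 bp from a boundary; its regulatory DNA is also used in transgenes, and that part was not tested. Cd28, a co-stimulatory receptor gene, had a boundary peak of 188.3 in the Tg thy list only. Zbtb16 and Cd4 had no boundary peak in either list.

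Of 43 transcription factors of the T lineage, 4 had a start peak in the Tg thy list (9.30%, 2.59 to 22.1%, against 4.05% of all genes) and 2 in the NKT list (4.65%, 0.568 to 15.8%, against 3.20%). Both of the latter were in the Tg thy list too. Tcf3, the E protein E2A, scored 488.7 and 230.4, and Stat3, a cytokine signal transducer, 302.1 and 211.6. Stat6, the transducer of interleukin 4 signals, had a peak only in the Tg thy list (293.6, 765 bp before the start), as did Runx1 (166.9). Of 31 effector and cytokine genes of natural killer T cells, 3 had a start peak in each list (9.68%, 2.04 to 25.8%) and 2 in both. With so few genes, the intervals of both groups include the shares of all genes. Ltb, which encodes lymphotoxin beta, scored 84.4 and 169.7, and its neighbour Lta 116 and 129. Prf1, the perforin gene, scored 57.5 in the Tg thy list only, and Tnfsf11, the RANKL gene, 81.0 in the NKT list only.

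Peaks of listed migration genes lay mostly at genes of unknown strand. Of 20 migration and adhesion genes of known strand 1 had a start peak, Dock2 (83.4 and 57.3), an exchange factor for lymphocyte movement. Of 14 such genes without strand, 5 and 2 had a boundary peak, where 4.23% and 3.79% of all genes of unknown strand did. Selplg, the P-selectin ligand, was the highest of them, with 854.4 and 445.3. Itgb2, an integrin subunit, had 62.4 and 133.4.

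Genes of the splicing and ribosomal machinery also had start peaks at higher shares than genes at large. Of all genes, 4.05% had one in the Tg thy list, 3.20% in the NKT list and 1.85% in both. Of 50 splicing genes, 14 had one in the Tg thy list (28.0%, 16.2 to 42.5%), 13 in the NKT list (26.0%) and 10 in both. Sf3a3 scored 235.7 and 243.9, Snrpd3, a core small nuclear ribonucleoprotein gene, 235.2 and 238.7, and Hnrnpf 155.1 and 186.7. Prpf31, a tri-snRNP protein gene, was the highest that had a start peak in 1 list only (185.2, Tg thy). Of 57 cytoplasmic ribosomal protein genes, 12 had a start peak in the Tg thy list (21.1%, 11.4 to 33.9%). In the NKT list 9 did (15.8%, 7.48 to 27.9%), and 6 had one in both. Rpl27 scored 180.8 and 187.0, Rps26 289.5 and 174.6, and Rps18 177.3 and 80.2. Rpl3, whose strand was not known, had boundary peaks of 440.9 and 215.3.

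The remaining lists had smaller numbers of start peaks, at shares mostly above the 4.05% and 3.20% of all genes. Of 36 nuclear oxidative phosphorylation genes 6 and 4 had a start peak (16.7% and 11.1%), among them Ndufs7, a complex I subunit gene (198.7 and 154.7). Of 30 proteasome genes 3 and 5 did (16.7% in the NKT list), with Psma3 in both (148.7 and 93.7). Of 28 cell cycle genes 5 and 2 did (17.9% and 7.14%), and of 31 survival genes 3 and 2 (9.68% and 6.45%), including Trp53, whose peaks lay on opposite sides of the start (136.7 at 933 bp and 73.3 at -898 bp). Of 23 DNA repair genes 5 and 3 had one (21.7% and 13.0%). That list holds Rag1, which with Rag2 forms the recombinase that assembles T cell receptor genes, with 279.6 and 82.3; Rag2 scored 127.9 in the Tg thy list. Of 28 genes of PLZF partners and co-repressors 3 had a start peak in the Tg thy list, the highest at Hdac7 (112.4), a histone deacetylase gene, and 0 in the NKT list, which allows a share of up to 12.3%. Of 12 antigen presentation genes 0 had a start peak in either list.

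**Figure D4:**
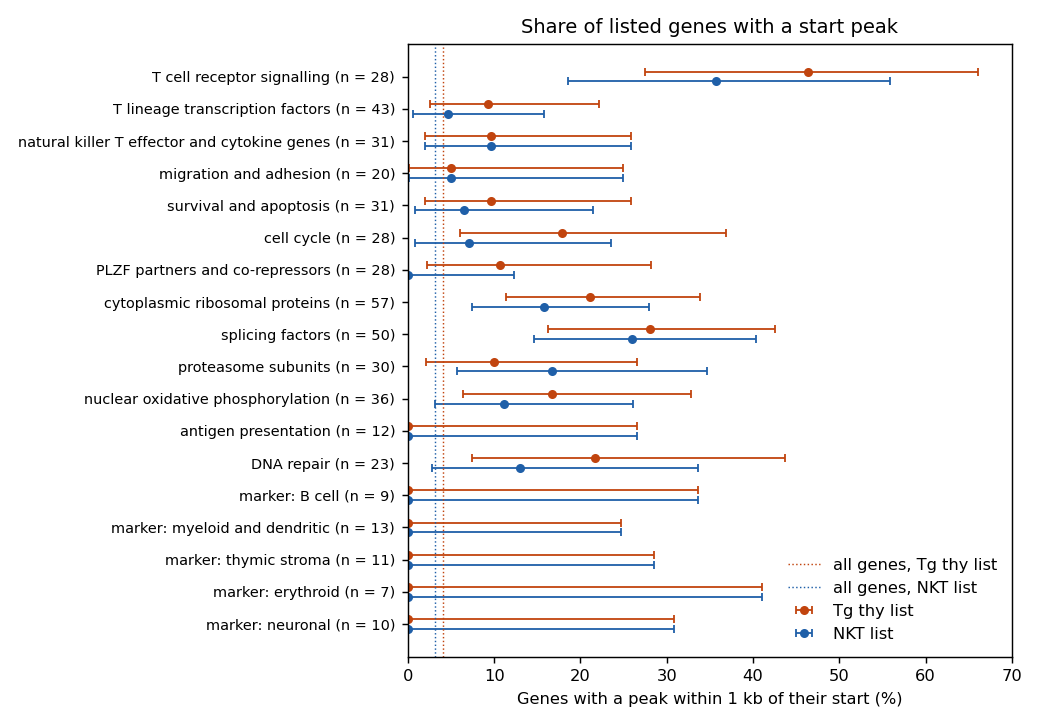
Share of the genes of each list, with known strand, that had a peak within 1 kb of their start, with exact 95% intervals, Tg thy list in orange and NKT list in blue; n is the number of genes, and dotted lines mark the shares over all genes, 4.05% and 3.20%. T cell receptor signalling genes stand highest at 46.4% and 35.7%, followed by splicing factors at 28.0% and 26.0%, and the 5 marker lists stand at 0. The lists were chosen with earlier results of these data known.

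Marker genes of other cell types that a thymus preparation can hold had no boundary peak in either list. None of 9 B cell, 13 myeloid and dendritic, 11 thymic stroma, 7 erythroid and 10 neuronal marker genes of known strand had a start peak. With so few genes, a count of 0 allows shares of up to 24.7 to 41.0% in these lists. The files hold no expression values, so the cell type was not checked beyond this.

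CCGGAA, the ETS form searched, was found in more start-peak promoters than in promoters at large. CCGGAA, read on both strands, occurred in 19.4% of 15533 RefSeq promoter windows. It occurred in 268 of 645 windows of genes with a start peak in the Tg thy list (41.6%, 37.7 to 45.5%), in 230 of 515 in the NKT list (44.7%, 40.3 to 49.1%) and in 46.9% of those with a start peak in both. The longer CCGGAAGT, added after the values were seen, occurred in 5.45% of all windows and in 13.2% and 16.3% of those with a start peak. The site was not placed differently: its median position was -42.0 bases from the start over all windows and -44.0 and -36.0 in start-peak windows.

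**Figure D5:**
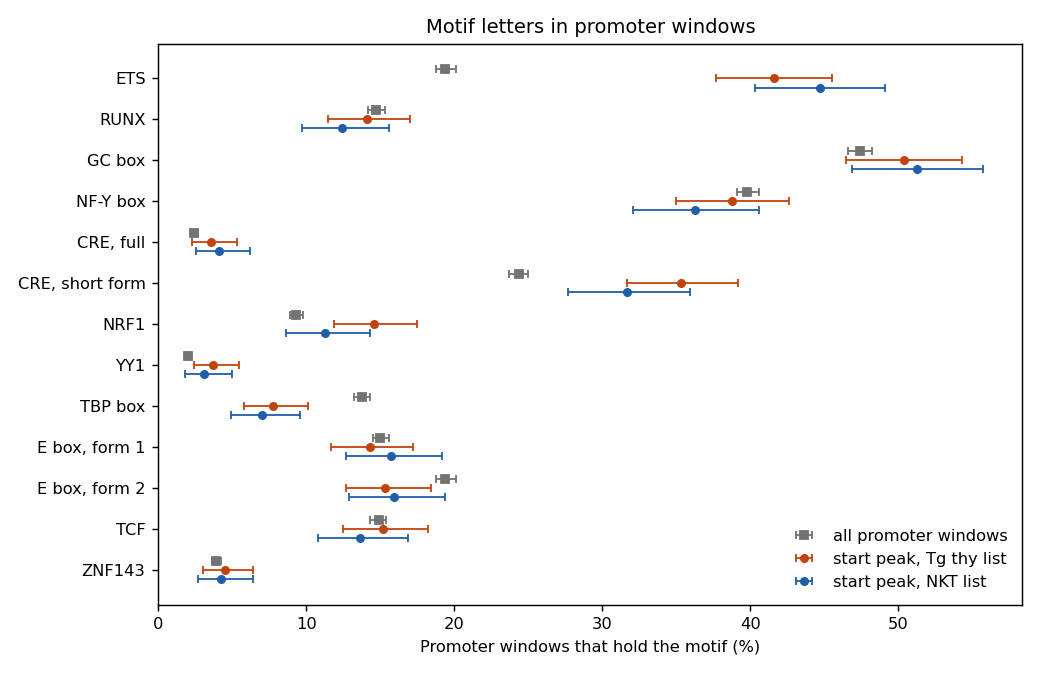
Share of promoter windows that hold each of 13 letter motifs, named by the factor or box they stand for, with exact 95% intervals: all windows in grey, windows of genes with a start peak in the Tg thy list in orange and in the NKT list in blue. CCGGAA, the ETS form searched, lies at 19.4% against 41.6% and 44.7%, while the RUNX, NF-Y, TCF and ZNF143 motifs lie close together.

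The share of promoters with a start peak rose with the number of CCGGAA matches, called cores in this paragraph. Among windows with none, 3.01% had a start peak in the Tg thy list and 2.28% in the NKT list. With 1 core the shares were 8.12% and 6.86%, with 2 cores 10.2% and 7.95%, and with 3 or more cores 13.3% and 14.8% (of 210 windows, 9.05 to 18.7% and 10.3 to 20.3%). Overlapping matches such as that of Rps18 count as 2 here. A core occurred in 48.1% and 50.9% of windows whose peak midpoint lay within 250 bp of the start, against 31.0% and 33.5% where it lay farther out. At least 1 core lay inside the peak in 185 of 268 windows (69.0%) and 130 of 230 (56.5%). The core nearest to the midpoint lay at a median of 109 and 99.5 bp from it. Cores and start peaks both lay near starts, and no background for these values was computed. Only 138 of 645 windows (21.4%) and 44 of 515 (8.54%) lay wholly inside the peak, so motif counts include letters outside it. Within start peaks the motif did not follow the score in steps: from the lowest to the highest of 3 score classes the shares were 38.1%, 45.1% and 41.4%, and 38.4%, 48.3% and 47.4%.

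CG content moved with both the peaks and the motif. Start-peak windows had a median of 18 and 19 CG dinucleotides, against 14 over all windows. Windows with at most 4 made up 28.4% of all and 4.81% and 4.27% of those with a start peak. Among windows with 5 to 14 CG dinucleotides, CCGGAA occurred in 16.3% of all and in 31.4% and 32.6% of those with a start peak. With 15 to 24 it occurred in 31.2%, 47.0% and 50.9%, and with 25 to 65 in 30.6%, 51.0% and 51.5%. The difference was thus present in each of the 3 classes richer in CG. In the class with at most 4, CCGGAA occurred in 2.34% of all windows, in 0 of 31 start-peak windows of the Tg thy list and in 2 of 22 of the NKT list.

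Other motifs differed less. TGACG, the core of CRE sites bound by CREB and ATF factors, occurred in 24.4% of all windows and in 35.3% and 31.7% of start-peak windows, and the full TGACGTCA, which contains it, in 2.41%, 3.57% and 4.08%. At like CG number the TGACG difference was smaller in the Tg thy list, and in the NKT list its direction varied with the class. With 5 to 14 CG dinucleotides TGACG occurred in 21.5% of all windows and in 26.2% (Tg thy) and 17.8% (NKT) of start-peak windows. With 15 to 24 it occurred in 33.2%, 38.7% and 31.5%, and with 25 to 65 in 38.5%, 44.5% and 49.2%. GCGCNTGCG, the NRF1 motif, occurred in 9.34%, 14.6% and 11.3%, and AAGATGGCG, the YY1 motif, in 2.01%, 3.72% and 3.11%. TATAAA, the TATA box, was in fewer of them, 7.75% and 6.99% against 13.8%. Within the class with 5 to 14 CG dinucleotides TATAAA occurred in 13.2% of all windows and in 14.0% and 10.9% of start-peak windows. With 15 to 24 the shares were close, 6.45% of all windows and 6.27% and 6.90% of start-peak windows. With at most 4 it occurred in 29.5% of all windows, 5 of 31 and 4 of 22, and with 25 to 65 in 3.33%, 1.94% and 1.52%. TGTGGT, the RUNX motif, occurred in 14.7%, 14.1% and 12.4%, CAGCTG and CACCTG, E boxes, in 15.0%, 14.3% and 15.7% and in 19.4%, 15.3% and 15.9%. CTTTGA, the TCF motif, occurred in 14.9%, 15.2% and 13.6%. GGGCGG, the GC box, occurred in 47.4%, 50.4% and 51.3%, CCAAT, bound by NF-Y, in 39.8%, 38.8% and 36.3%, and ACTACAA, part of the ZNF143 site, in 3.90%, 4.50% and 4.27%. A match describes the letters in the window and is not a bound site.

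The gene groups differed in these letters, both over all their windows and over those with a start peak. Over all promoter windows of a group, CCGGAA occurred in 25 of 45 of the splicing genes (55.6%), 25 of 54 of the ribosomal protein genes (46.3%) and 3 of 23 of the T cell receptor signalling genes (13.0%). Of the splicing genes with a start peak and a promoter window, CCGGAA occurred in 8 of 12 in the Tg thy list and 8 of 11 in the NKT list, with medians of 22.5 and 23 CG dinucleotides. Of the ribosomal protein genes it occurred in 6 of 12 and 5 of 9, with 17 and 18. Of the T cell receptor signalling genes it occurred in 1 of 11 and 1 of 9, with a median of 4 CG dinucleotides in both lists. ETS sites of other letters were not searched, so these counts do not show that such sites are absent. The intervals of the CCGGAA shares in start-peak windows include the share of each group as a whole, which counts the same windows. With 9 to 12 windows they are wide, for the splicing genes 34.9 to 90.1% and 39.0 to 94.0%. A contrast of start peaks beyond that of the groups was not tested. All windows of the receptor signalling genes had a median of 8 CG dinucleotides, above the 4 of those with a start peak. For splicing and ribosomal protein genes the medians over all windows were 24 and 21. Counting the motif by gene list was added after the values were seen.

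Genes with a start peak more often had a neighbouring start on the opposite strand than genes at large. Of all genes, 10.4% had the start of another gene on the opposite strand within 1 kb; among genes with a start peak the shares were 25.3% (22.1 to 28.7%) in the Tg thy list and 23.7% (20.2 to 27.5%) in the NKT list. A total of 93 start peaks in the Tg thy list (14.2%) and 74 in the NKT list (13.6%) lay within 1 kb of 2 or more starts, and 92 and 72 of these joined genes of both strands. A peak near such starts counts for the genes on both sides, which by itself raises the share among genes with a start peak. No background was computed for the shares of peaks. The highest such pairs in both lists were Wdr76 and Mfap1a (509.9 and 184.0), Mrpl30 and Mitd1 (286.6 and 244.4), Timm9 and 2700049A03Rik (261.1 and 199.1), Snrpd3 and Gucd1 (235.2 and 238.7), and Pex3 and Adat2 (227.4 and 185.1). Mrpl30 and Timm9 serve mitochondria, and Pex3 builds peroxisomes. In 73 and 58 start peaks (11.2% and 10.7%) a boundary of a long noncoding RNA gene also lay within 1 kb.

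Chromosome X had few peaks, at starts and elsewhere. Of its 817 genes, 6 had one in the Tg thy list (0.734%, 0.270 to 1.59%) and 8 in the NKT list (0.979%, 0.424 to 1.92%), against 4.22% and 3.31% of autosomal genes. The lowest autosomes were chromosome 14 with 2.81% in the Tg thy list and chromosome 8 with 1.52% in the NKT list. Peaks of any place were also few on X, 23 of 5191 (0.443%) and 28 of 4239 (0.661%). Start peaks were 6 of these 23 (26.1%, 10.2 to 48.4%) and 8 of these 28 (28.6%, 13.2 to 48.7%). Over all nuclear peaks they were 12.6% and 12.8%, so the shortage on X was not particular to starts. The X genes with a start peak in both lists were Las1l (138.6 and 55.5) and Rpl10 (222.3 and 66.9) of ribosome production and function, Ogt, the O-GlcNAc transferase gene (227.5 and 141.1), and Tbl1x, a co-repressor subunit gene (95.1 and 50.8).

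End peaks were few and scattered. A peak within 1 kb of the end, counting those also near a start, was found at 139 genes (0.805%) and 95 genes (0.550%). Away from any start there were 96 and 69 such genes, 47 of them in both lists. After Cd3d the highest by rank in both were Ripor1, a regulator of small GTPase signalling (830.0 and 425.2), and Mical3, an actin-oxidising enzyme gene (620.3 and 405.6). Their peaks lay 901 and 904 bp, and 835 and 827 bp, beyond the end. Myrip, a linker of myosin to vesicles, had 529.0 and 736.4, and Uggt2, a glycoprotein folding sensor of the endoplasmic reticulum, 482.0 and 734.7. Hsdl1 (539.2 and 271.5), Vamp1, a vesicle fusion protein gene (432.0 and 267.3), and Cacnb1, a calcium channel subunit gene (409.1 and 263.9), completed the 8. The peaks of these genes lay from inside the gene, as at Uggt2 (-902 and -891 bp), to 966 bp past it at Cacnb1.

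Some genes had separate peaks at both ends, 11 in the Tg thy list and 10 in the NKT list. For scale, 700 and 552 of 17273 genes had a start peak, and 96 and 69 an end peak away from any start. Whether start and end peaks met in the same genes more often than unrelated peaks would was not tested. Sox4, a factor needed for natural killer T cell development, had start peaks of 231.5 and 188.8 and end peaks of 185.2 and 124.8, at 261 bp or less from the boundary. Cd3d, described above, also had both in both lists. So did Cstf1, a polyadenylation factor gene, with start peaks of 57.2 and 74.0 that also lay at the start of its neighbour Aurka, and end peaks of 93.0 and 76.9.

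The highest unshared peaks scored below the highest shared peaks. In the Tg thy list the highest unshared start peaks were at Timm22 (303.9), Tut1 (298.4), Dcp1a (297.3), Stat6 (293.6) and Traf3ip3 (293.2), and the highest unshared end peaks at Scube1 (314.3), Gm1070 (270.8) and Slc35b4 (244.8). Timm22 is a mitochondrial import gene, Tut1 a uridylyltransferase gene of U6 RNA and Dcp1a an mRNA decapping gene. In the NKT list the highest unshared start peaks were at Rangap1 (169.7), Tmco1 (160.6), N4bp2l2 (150.1), Dhx8 (148.2) and Psmg3 (137.6). Dhx8 is a splicing helicase gene and Psmg3 a proteasome assembly gene. The unshared NKT end peaks of highest score were 2 narrow peaks inside Uggt2 (123.6 and 115.8, widths 168 and 84 bp). They lay between the shared Uggt2 peaks, at -534 and -308 bp from its end and 838 and 612 bp past the end of Dnajc3. The next was at Adamtsl4 (114.9).

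The 1 kb limit cut through a continuous range. The members nearest to it in the Tg thy list were at B4galt7 (996 bp from the start, score 61.2) and Polq (993 bp from the end, 59.1), and the nearest left out were at Ercc1 (1002 bp, 144) and Klf13 (1006 bp, 63.9). In the NKT list the members were at B9d2 and Tspoap1 (both 997 bp, 54.8 and 102) and those left out at Mob3a (1004 bp, 59.1) and Got1 (1008 bp, 54.1). The start used was the outermost one of the gene table. A further 125 Tg thy and 83 NKT peaks away from these boundaries (2.93% and 2.40%) lay within 1 kb of another RefSeq start of a protein-coding gene.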

How the data were processed

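The study's 4 samples were 2 streptavidin ChIP-seq libraries and 2 inputs of mouse thymocytes, 1 library per group. The authors deposited 1 peak list per ChIP library, which gives the position of each peak, a MACS name and a score. The meaning of that deposited score, the control used in peak calling and any pooling are not stated. Per the submitters' processing notes, reads were handled with Bowtie, Picard and HOMER on mm10, without versions. No read counts were used, so the depth is unknown. The lowest scores were 50.03 and 50.02, a floor below which nothing is listed.

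Coordinates are 1-based (1 added to each deposited start). Peaks on the Y chromosome and mitochondrial DNA were left out. Protein-coding genes came from the RefSeq gene table of GRCm38.p6. Strand came from the RefSeq promoter table and was used for 17273 genes; the other 4354, all of chromosome 18 among them, had no matched entry. A peak within 1 kb of a known start counted as a start peak, then as strand unknown, then as an end peak. Peaks were shared when they overlapped by at least 1 bp. Motifs were searched on both strands of 300-base windows (250 before to 50 after the start) whose start lay within 1 kb of the gene-table start. Some listed genes have no such window, so motif counts have smaller totals. Shares have exact (Clopper-Pearson) 95% intervals, and no p-value was computed, since peaks are not biological replicates. Scripts ran in Python 3.11.15 with pandas 2.3.3 and scipy 1.17.1 and were tested on simulated peaks.

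Named were the 12 genes with a start peak and the 8 with an end peak in both lists whose lower within-list score percentile was highest, per list the 5 start and 3 end peaks of highest score that were not shared, up to 3 genes in both lists and the highest in 1 list for each gene list, the genes with peaks at both boundaries, the 5 highest gene pairs and the peaks nearest to the limit. Genes of the receptor signalling list were named beyond this rule, as were the X-linked genes and the members of unknown strand, after their values were seen. Some genes of these lists are not reported here. The members, the 13 gene lists and the 5 marker lists were chosen with earlier results of these data known. Alternatives were other windows and overlaps, the upper 50% of each list by score, shared peaks only, the nearest boundary, and leaving out predicted gene models or regions presumed to be repeat-rich.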

Additional observations from a re-analysis of the deposited data

How the results depend on the processing

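No paired analysis was possible because each group had 1 library and no replicate numbers. Of 112 values recomputed under an alternative, 87 moved by less than their counting interval, the 1.5-fold limit for counts or the score spread, and 25 moved by more. With the upper 50% of each list by score, boundary peaks numbered 409 (Tg thy) and 364 (NKT) and start-peak genes 318 and 262. These counts fall with the size of the list, so their move past the 1.5-fold limit follows largely from the cut itself. In this setting starts made up 83.7% and 83.8% of boundary peaks of known strand. The 500 bp window gave 89.2% in the Tg thy list and the 2.5 kb window 84.3% in the NKT list. The share of boundary peaks in both lists, 44.4% and 58.9% as reported, was 28.2% and 33.5% at reciprocal 50% overlap, 48.4% and 64.1% with midpoints within 1 kb, and 54.8% and 65.1% with the upper 50% of both lists. Among shared peaks only, start peaks had median scores of 154 and 91.9 and end peaks of 197 and 128. With start peaks within 250 bp, CCGGAA occurred in 48.0% and 49.9% of windows and GGGCGG in 43.6% (Tg thy). With the upper 50% by score, TGACG occurred in 30.7% and 26.2%, CAGCTG in 17.2% (Tg thy) and CCAAT in 32.0% (NKT). The share of CCGGAA stayed above the 19.4% of all windows in each of these settings, whereas that of TGACG in the NKT list came near its 24.4%. With 1 library per group and no depth, differences between the lists have no replicate check, and a gene without a peak in a list may have signal below its score floor.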
